A study of Mus musculus with 6 samples.

Results

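Potassium channel genes were examined in RNA from the small intestinal epithelium of mice that had lost a pair of nuclear receptor corepressors. The members were the protein-coding genes whose symbol starts with Kcn followed by letters and a number and that held at least 10 counts summed over the 6 libraries. Of 92 such symbols in the table, 44 met the minimum, out of 55450 gene identifiers in all. PolyA RNA was sequenced with 1 library per mouse, and reads were counted per gene. The 3 control mice were Vil1-Cre-ERT2- with Ncor1loxP/loxP and floxed alleles of the second targeted corepressor gene, and the 3 knockout mice carried the same floxed alleles with Vil1-Cre-ERT2+. The protocol, shared by both groups, gave tamoxifen for 5 days at 8 to 9 weeks of age, at 15 mg per 100 g of body weight, with mice moved to metabolic cages at day 21. Tamoxifen activates this Cre, which the villin 1 promoter drives in intestinal epithelial cells, and the labels give neither the deleted exons nor the section of small intestine behind a library. Because Cre was present in the knockout group alone, the transgene and the deletion cannot be told apart. Values by library are given in the order of the animal numbers, 482, 483 and 486 for controls and 423, 476 and 477 for knockouts.

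Potassium channels let potassium leave or enter a cell and so set its membrane voltage. In intestinal epithelium, potassium brought in by the sodium pump and by a sodium-potassium-chloride cotransporter leaves through channels, and the resulting voltage drives chloride secretion and sodium-coupled nutrient uptake. The family holds voltage-gated (Kv) channels, calcium-activated channels, inward rectifiers (Kir) and tandem-pore-domain (K2P) leak channels. Accessory and modulatory subunits carry no current alone and alter the channels they join.

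Total counts ran from 23476031 to 46835165 per library, and 3 counts corresponded to 0.0586 to 0.173 CPM (counts per 1000000 counts of a library, scaled by TMM, an adjustment for differences in RNA composition). The targeted gene Ncor1 lay between 99.3 and 140 CPM in the controls and between 22.5 and 36.4 CPM in the knockouts. The epithelial marker list (Vil1, Epcam, Cdh1, Krt20, Alpi, Apoa1 and Apoa4) was detected in full, with a summed level, mostly from Apoa1 and Apoa4, of 33275 to 45874 CPM in controls and 43201 to 81062 CPM in knockouts. Without those apolipoprotein genes the sum was 9697 to 10369 and 6212 to 10832 CPM. Apoa4 rose (log2 fold change 1.27, adjusted p = 0.0225), and Vil1, whose promoter drives the Cre, fell (-1.20, adjusted p = 0.0105). The libraries also differed in 7 stem cell and cycling markers. Their summed level was 151, 58.2 and 91.7 CPM in the controls against 238, 45.3 and 39.2 CPM in the knockouts, and 72.5, 32.8 and 42.3 against 48.3, 19.0 and 10.9 CPM without Olfm4. One of them, Axin2, fell (log2 fold change -1.95, adjusted p = 0.00258).

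The potassium channel genes that fell in the knockout had control means of 0.543 to 5.64 CPM. Of the genes with higher control means in CPM, Kcnk10 alone did not overlap between genotypes. Per exon length, Kcnj13 held rank 4 and Kcnj16 rank 10 of the 44 members in the controls. Of the 44 members, 22 passed the filter on low counts and were tested. In the knockout 7 fell (Kcnj13, Kcnj15, Kcnj16, Kcns3, Kcnf1, Kcnd3 and Kcnu1), 1 rose (Kcnk10), and 14 did not pass (edgeR quasi-likelihood test with Benjamini-Hochberg adjustment over 15028 genes, threshold 0.05). The share called was 36.4% of the tested members against 35.6% of all genes tested, so members were called about as often as other genes. In 10 of the 22 the genotypes did not overlap, against 50.3% of all genes. By direction, 31.8% of tested members fell against 18.3% of all genes, and 4.55% rose against 17.3%. The median log2 fold change of the 22 was -0.69 (the same with 2 members set at their lower bounds), and that of all genes tested was -0.06. All 7 members that fell reached the filter's minimum in control libraries alone, as did 1 of the 14 not called, so the shares by direction are tied to the filter and do not describe the family. With library-size scaling in place of TMM, none of the members rose and 9 fell (0 higher at an unadjusted p under 0.05), at a median over all genes of -0.49. Under that scaling 30.3% of all genes fell and 7.54% rose.

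**Figure D1:**
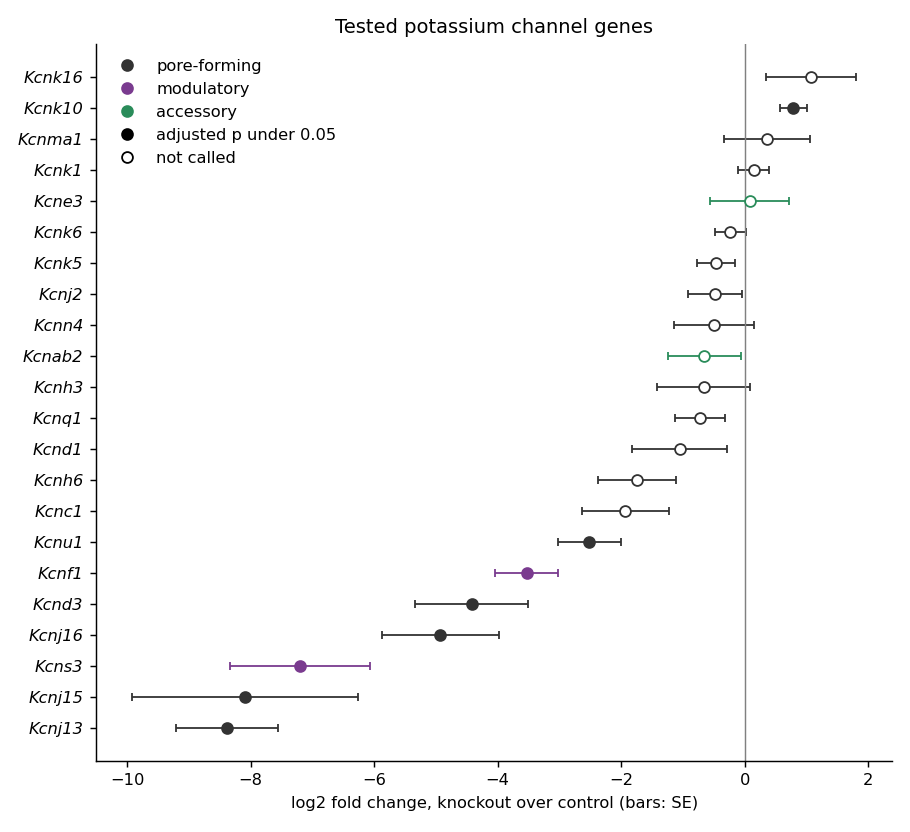
Log2 fold change of knockout over control for the 22 tested potassium channel genes, with the SE as bars, coloured by subunit role and filled where the adjusted p was under 0.05. The 7 genes that fell sit at log2 fold changes of -2.51 or lower, and Kcnk10 (0.79) is the only filled point right of 0; the points of Kcnj15 and Kcns3 are fitted values for genes without a count in any knockout.

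Among inward rectifiers, which pass potassium more easily into the cell than out of it, 3 of 4 tested members fell to a level at or near 0. These 3 passed the filter through control libraries alone, and another 5 inward rectifier genes failed it. Of all genes tested, 18.3% fell. Kcnj13 encodes Kir7.1, a low-conductance rectifier of transporting epithelia (ENSMUSG00000079436, chromosome 1, 87386363 to 87394729). It read 6.13, 2.60 and 8.18 CPM in the controls against 0.0362, 0 and 0 CPM in the knockouts. All 3 knockouts were below every control, and the knockout group held 1 count against 787 in the controls. That ratio was 461-fold with a 95% counting interval of 82.5 to 18225 (exact binomial), and the adjusted p was 0.000158. Intervals cover counting error only. The fitted log2 fold change was -8.38 (SE 0.82), and it was -10.63 without knockout 423, the library with the single count, and -7.78 without knockout 476. Kcnj13 lies on the opposite strand inside Gigyf2 and shares 49.1% of its 1270 exon bases with that gene's exons, and the strand setting of the counting is not given in the sources used here. Gigyf2 stood at 46.4 to 74.1 CPM in controls and at 17.4 to 35.4 CPM in knockouts, where Kcnj13 had 1 count in all.

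Kcnj15 encodes Kir4.2 and Kcnj16 encodes Kir5.1, a subunit that forms channels together with Kir4.1 or Kir4.2. Kcnj15 (ENSMUSG00000062609, chromosome 16, 95257558 to 95300260) read 0.358, 2.43 and 0.293 CPM in the controls and had no count in any knockout. Control 483 was far above the other 2 controls. With the knockout group set at a floor of 3 counts Kcnj15 was at least 20.3-fold lower (adjusted p = 0.0132), and at least 8.12-fold lower without control 483, which held 72 of the 104 control counts. Its fitted log2 fold change moved from -8.09 to -6.52 without control 483 (adjusted p = 0.0141), and it failed the low-count filter without control 482. Kcnj16 (ENSMUSG00000051497, chromosome 11, 110968033 to 111027968) read 3.98, 0.608 and 1.93 CPM in the controls against 0.109, 0 and 0.115 CPM in the knockouts. Here control 483 was the lowest control, the reverse of Kcnj15, and the groups did not overlap. The log2 fold change of Kcnj16 was -4.93 (SE 0.94, adjusted p = 0.00449), and it was -4.16 without control 482 and -4.23 without knockout 476. Kcnj10, which encodes the partner Kir4.1, failed the low-count filter, with 32 counts in the controls and 19 in the knockouts (adjusted p = 0.98 in a fit without the filter).

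Kcnj2, which encodes the strong rectifier Kir2.1, begins 38.2 kb downstream of Kcnj16 on chromosome 11 and did not follow its neighbour. It read 15.4, 7.87 and 12.3 CPM in the controls against 10.3, 12.0 and 3.16 CPM in the knockouts. The groups overlapped (log2 fold change -0.47, SE 0.44, adjusted p = 0.42). Knockout 477 was the lowest of the 6 libraries.

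**Figure D2:**
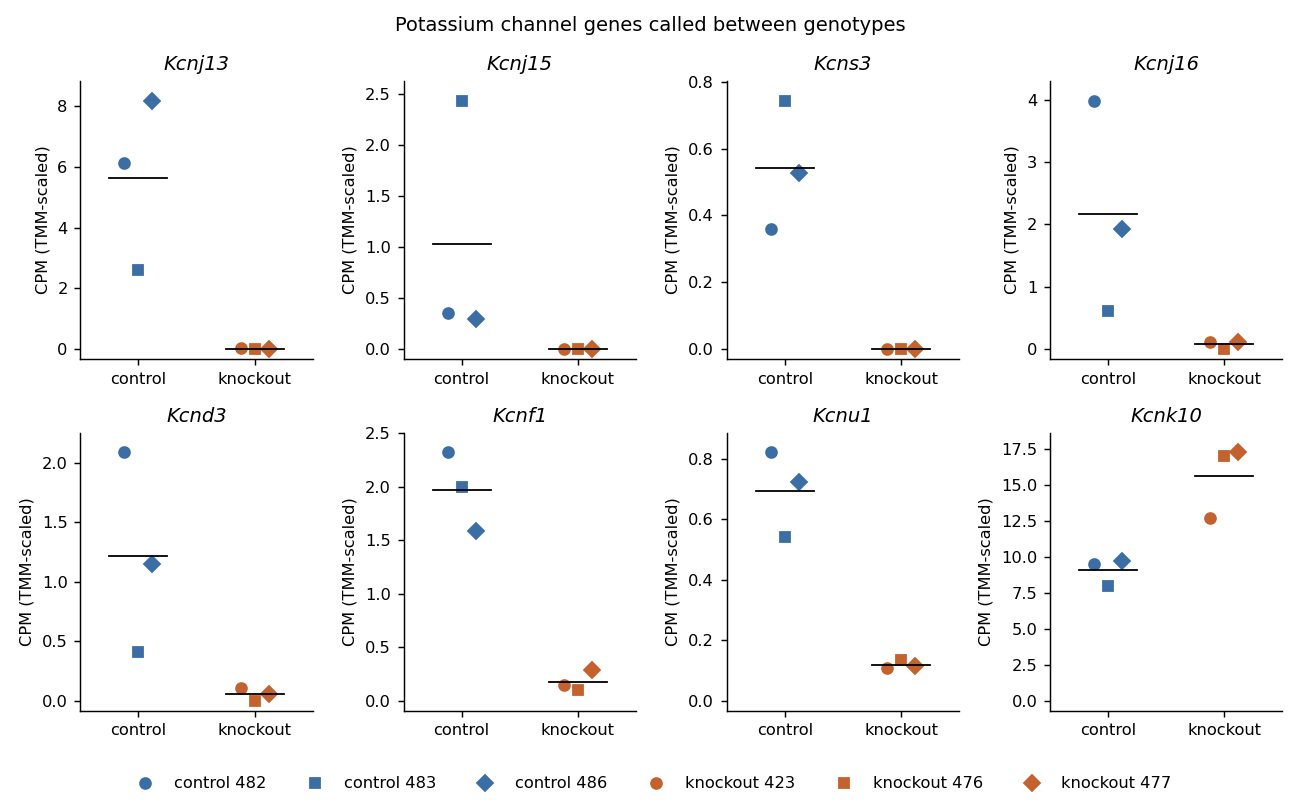
TMM-scaled CPM in each library for the 8 potassium channel genes called between genotypes, with a line at the mean of each group; every panel has its own linear axis. In each panel the 3 knockouts lie on 1 side of the 3 controls, and Kcnk10 is the only gene with the knockouts above.

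Promoter sequence is shown for Kcnj13, Kcnj16 and Kcnf1, which fell, and for Kcnk10, which rose, since the corepressors act through nuclear receptors that bind the half-site AGGTCA. The sequences are from RefSeq on GRCm38.p6 (the mm10 assembly), run 5′ to 3′ on the gene's strand from 250 bases before to 50 after an annotated start, and 30 of the 44 members had an entry, with 43 starts. Capitals mark AGGTCA or TATAAA on either strand. The starts of Kcnj16, Kcnf1 and Kcnk10 were chosen for print because they hold AGGTCA, and that of Kcnj13 because it holds TATAAA.
Kcnj13, chr1:87394680-87394979, minus strand: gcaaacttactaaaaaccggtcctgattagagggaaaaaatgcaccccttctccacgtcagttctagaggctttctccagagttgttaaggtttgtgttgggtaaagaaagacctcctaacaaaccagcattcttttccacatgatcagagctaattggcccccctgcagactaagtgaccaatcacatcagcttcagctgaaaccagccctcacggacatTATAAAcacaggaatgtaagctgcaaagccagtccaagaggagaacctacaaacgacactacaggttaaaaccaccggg
Kcnj16, the first of 4 starts, chr11:110967783-110968082, plus strand: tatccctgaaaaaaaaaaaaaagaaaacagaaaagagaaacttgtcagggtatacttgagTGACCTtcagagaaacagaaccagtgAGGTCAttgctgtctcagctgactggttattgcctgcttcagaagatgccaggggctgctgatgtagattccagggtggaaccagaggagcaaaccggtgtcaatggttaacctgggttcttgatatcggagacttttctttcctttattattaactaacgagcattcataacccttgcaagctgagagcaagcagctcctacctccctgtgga
Kcnf1, chr12:17176839-17177138, minus strand: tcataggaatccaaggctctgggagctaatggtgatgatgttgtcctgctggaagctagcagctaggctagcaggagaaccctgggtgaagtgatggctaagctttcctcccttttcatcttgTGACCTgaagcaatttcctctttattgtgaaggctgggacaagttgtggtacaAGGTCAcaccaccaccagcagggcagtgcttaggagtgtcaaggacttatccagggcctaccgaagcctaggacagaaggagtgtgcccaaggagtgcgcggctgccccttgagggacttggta
Kcnk10, the second of 2 starts, chr12:98575078-98575377, minus strand: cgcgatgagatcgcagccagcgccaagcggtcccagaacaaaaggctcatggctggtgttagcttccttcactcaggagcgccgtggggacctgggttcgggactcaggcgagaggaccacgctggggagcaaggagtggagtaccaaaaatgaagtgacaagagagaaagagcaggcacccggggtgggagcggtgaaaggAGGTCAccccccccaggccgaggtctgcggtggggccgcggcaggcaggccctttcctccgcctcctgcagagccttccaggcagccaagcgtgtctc

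Among the 43 starts AGGTCA occurred at 3, namely those printed for Kcnj16 (2 matches), Kcnf1 (2) and Kcnk10 (1). Over all 32851 promoters of this length 16.3% held it. TATAAA also occurred at 3 starts, those of Kcnj13, Kcnj15 and the third start of Kcnj16, against 13.6% of all promoters. In Kcnj13 it begins at position -29 from the annotated start. These matches describe the letters in the windows. The half-site was present in genes that fell and in the gene that rose.

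Of 5 modulatory subunit genes, 2 were tested and both fell, against 18.3% of all genes tested. Both passed the filter through control libraries alone, and the other 3 failed it. Modulatory subunits form no working channel alone and join Kv2 pores. Kcns3, which encodes Kv9.3 (ENSMUSG00000043673, chromosome 12, 11090202 to 11151056), read 0.358, 0.743 and 0.527 CPM in the controls and had no count in any knockout. With the knockout group set at the floor of 3 counts it was at least 12.9-fold lower (adjusted p = 0.00322). Kcnf1, which encodes Kv5.1 in 4789 exon bases (ENSMUSG00000051726, chromosome 12, 17172100 to 17176888), read 2.32, 1.99 and 1.58 CPM in the controls against 0.145, 0.0997 and 0.288 CPM in the knockouts. Its controls lay close together, and its knockouts held 4, 3 and 5 counts. The means differed 11.1-fold (log2 fold change -3.53, SE 0.51, adjusted p = 0.00125). The Kv2 pore gene Kcnb2 failed the filter, with 39 counts in the 3 controls and 4 in the knockouts (adjusted p = 0.068 in a fit without the filter).

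Of the voltage-gated pore genes, Kcnd3 fell. It encodes Kv4.3, a fast-inactivating channel (ENSMUSG00000040896, chromosome 3, 105452330 to 105674002). Kcnd3 read 2.09, 0.405 and 1.15 CPM in the controls against 0.109, 0 and 0.0575 CPM in the knockouts. The groups did not overlap, and control 483 was again the lowest control. The log2 fold change was -4.42 (SE 0.91, adjusted p = 0.00620), and it was -3.79 without control 482, -5.57 without knockout 423 and -3.74 without knockout 476. Its paralog Kcnd1 gave -1.05 (SE 0.76, adjusted p = 0.30) on the same scale.

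Kcnu1, which encodes the pH-sensitive channel Slo3 known from sperm (ENSMUSG00000031576, chromosome 8, 25849623 to 25937939), also fell. It read 0.822, 0.540 and 0.723 CPM in the controls against 0.109, 0.133 and 0.115 CPM in the knockouts. The values lay close together within each group, though the knockouts held only 3, 4 and 2 counts. The means differed 5.85-fold (log2 fold change -2.51, SE 0.51, adjusted p = 0.00583). Kcnma1, which encodes the related large-conductance calcium-activated channel, did not pass (adjusted p = 0.71), and its log2 fold change of 0.36 (SE 0.70) turned negative with library-size scaling.

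Kcnc1 and Kcnh6 lay just outside the threshold, and they are named after their values were seen. Kcnc1 encodes the fast Kv3.1 channel and read 0.464, 0.507 and 0.391 CPM in the controls against 0.217, 0.0997 and 0 CPM in the knockouts (log2 fold change -1.93, SE 0.70, adjusted p = 0.0566). Kcnh6 encodes an ERG-type channel and read 1.58, 0.473 and 0.547 CPM in the controls against 0.181, 0.399 and 0.173 CPM in the knockouts (log2 fold change -1.75, SE 0.64, adjusted p = 0.0567). Neither pair of groups overlapped. Over the 13 alternatives the adjusted p of Kcnc1 ranged from 0.0325 (limma-voom) to 0.196 (length and GC trends removed, log2 fold change -1.26). That of Kcnh6 ranged from 0.0314 (library-size scaling) to 0.29 (without control 482, log2 fold change -0.98).

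Markers of other cells differed between the genotypes, in 1 direction for some lists and in both for others. All 11 tuft cell markers tested fell, with a summed level of 133 to 382 CPM in controls and 3.28 to 15.8 CPM in knockouts, and Il25 had no count in any knockout. Of 4 mast cell markers, 2 were tested and both fell, with sums of 6.08 to 12.5 and 0.0997 to 0.460 CPM, and Cpa3 and Fcer1a had no count in any knockout. Of 7 Paneth cell markers 5 fell, with sums of 1053 to 5061 and 731 to 1223 CPM. The tuft sum was highest in control 482 (382 CPM), where Kcnj16, Kcnd3, Kcnf1 and Kcnu1 were also at their highest, while Kcnj13, Kcnj15 and Kcns3 peaked in other controls. Control 482 was also the highest control for the Paneth cell (5061 CPM), mast cell (12.5 CPM) and stem cell and cycling (151 CPM) sums. Of 4 tested markers of interstitial cells of Cajal and neurons, Kit and Ano1 fell, and both were also highest in control 482 (10.7 CPM each). All 5 erythrocyte markers rose, with sums of 7.95 to 22.2 and 35.5 to 543 CPM. Of 7 goblet cell markers 3 rose and 3 fell, and of 11 tested enteroendocrine markers 1 rose and 2 fell. Of 6 myeloid markers 1 rose and 2 fell, and of 9 T cell markers 1 fell. None of the tested endothelium or fibroblast markers was called. Of all genes tested, 17.3% rose and 18.3% fell. No list of smooth muscle or B cell markers had a called gene, but single libraries stood apart. The smooth muscle and pericyte sum was 43.3 CPM in control 483 and 80.8 CPM in knockout 477 and at most 7.83 CPM elsewhere, and the B cell gene Ms4a1 read 11.7 CPM in control 483 and 1.05 CPM or less elsewhere. Control 483 also held most counts of Kcnj15, and knockout 477 most knockout counts of Kcnj8. The part of these cells in the potassium channel results was not tested. In bulk RNA, fewer cells of a type and less RNA per cell cannot be told apart.

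Kcnk10 was the only member that rose. It encodes TREK-2, a K2P leak channel opened by stretch and by polyunsaturated fatty acids (ENSMUSG00000033854, chromosome 12, 98429437 to 98578310). It read 9.51, 7.97 and 9.69 CPM in the controls against 12.7, 17.0 and 17.3 CPM in the knockouts. Every knockout was above every control, and the means differed 1.73-fold (log2 fold change 0.79, SE 0.22, adjusted p = 0.0222). The call was lost with library-size scaling (log2 fold change 0.33, adjusted p = 0.30) and without control 482, control 483, knockout 476 or knockout 477 (log2 fold changes of 0.82, 0.70, 0.74 and 0.73, with adjusted p of 0.0561, 0.0892, 0.0600 and 0.0737). With each library's trend in gene length and GC content removed, the log2 fold change was 1.24 (adjusted p = 0.00339).

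The other K2P genes tested did not pass, and they include the most abundant potassium channel gene. Kcnk5 encodes TASK-2, a channel opened by alkaline conditions outside the cell (ENSMUSG00000023243, chromosome 14, 20140057 to 20181809). Kcnk5 read 101, 121 and 56.3 CPM in the controls against 62.2, 88.0 and 51.7 CPM in the knockouts. The groups overlapped because control 486 lay below knockouts 423 and 476 (log2 fold change -0.46, SE 0.31, adjusted p = 0.26), and without control 486 Kcnk5 fell (log2 fold change -0.72, adjusted p = 0.0491). Kcnk1 encodes TWIK-1 and read 22.9, 13.5 and 19.5 CPM in the controls against 25.6, 17.3 and 19.2 CPM in the knockouts (log2 fold change 0.15, SE 0.25). Kcnk6, which encodes TWIK-2, gave group means of 8.00 ± 1.26 and 6.80 ± 1.21 CPM (SD, n = 3; log2 fold change -0.23, SE 0.25). Kcnk16, a neighbour of Kcnk5 that encodes the alkaline-activated TALK-1, was low in both groups, at 0.259 ± 0.228 and 0.522 ± 0.234 CPM (SD, n = 3).

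The potassium channel genes Kcnq1, Kcne3 and Kcnn4, which serve chloride secretion, each overlapped between genotypes. KCNQ1 with its partner KCNE3 forms a basolateral channel that stays open across voltages and carries the potassium current during cAMP-driven secretion, and KCNN4 is the calcium-activated counterpart. Kcnq1 (ENSMUSG00000009545, chromosome 7, 143106362 to 143427042) read 18.4, 6.32 and 13.9 CPM in the controls against 11.5, 6.28 and 5.64 CPM in the knockouts. Kcne3 (ENSMUSG00000035165, chromosome 7, 100176502 to 100184869) read 16.4, 3.04 and 10.7 CPM in the controls against 20.2, 5.72 and 5.92 CPM in the knockouts. Kcnn4 (ENSMUSG00000054342, chromosome 7, 24370263 to 24386690) read 9.32, 3.14 and 5.31 CPM in the controls against 9.16, 1.93 and 1.44 CPM in the knockouts. For all 3 genes control 482 was the highest control, control 483 the lowest, and knockout 423 the highest knockout. Each of these held for the stem cell and cycling marker sum given above, with or without Olfm4. Each also held for the tuft cell and the Paneth cell marker sums. The log2 fold changes were -0.72 (SE 0.40, adjusted p = 0.19) for Kcnq1, 0.08 (SE 0.64, adjusted p = 0.93) for Kcne3 and -0.50 (SE 0.65, adjusted p = 0.58) for Kcnn4. Without knockout 423 Kcnn4 fell (log2 fold change -1.77, adjusted p = 0.0323). The part of crypt, tuft or Paneth cells in these values was not tested. Of the other KCNE subunits, Kcne1 and Kcne2 had no count in any library and Kcne4 had 4 counts in all.

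Both accessory genes tested, Kcne3 and Kcnab2, missed the threshold (0 of 2 at an unadjusted p under 0.05 with edgeR, and none with DESeq2 or limma-voom after adjustment). Kcnab2, which encodes the Kv beta subunit 2, ranged widely in the controls, up to 2.13 CPM in control 483. Its knockouts, at 0.724, 0.632 and 0.863 CPM, lay between control 482 and control 486 (0.996 CPM).

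Per exon length, Kcnk5 led the family in both genotypes. Kcnk5 stood at 27.3 ± 9.74 CPM per kilobase of exon in controls and 19.8 ± 5.48 in knockouts (SD, n = 3), above every value of Kcnk1, the next gene, at 8.34 ± 2.11 and 9.25 ± 1.95. In controls the order went on with Kcne3 (5.64), Kcnj13 (4.44), Kcnq1 (3.14), Kcnj2 (2.18), Kcnk6 (1.93), Kcnn4 (1.16), Kcnk10 (1.03) and Kcnj16 (0.553). Each of these overlapped with its neighbour in that order over the 3 controls, as Kcne3 did with Kcnk1. In knockouts Kcne3 (5.97) was followed by Kcnq1 (1.91), Kcnk10 (1.78), Kcnk6 (1.64), Kcnj2 (1.56) and Kcnn4 (0.816), then by Kcnk16 (0.219) and Kcnab2 (0.133). There Kcne3 was clear of Kcnq1, and the later neighbours overlapped. Kcnj13 was thus among the 10 highest genes in the controls and not in the knockouts.

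As a share of the summed per-length level of all 44 members, Kcnk5 took 33.2% to 64.8% in controls and 35.3% to 56.6% in knockouts. The K2P genes together took 56.5% to 81.2% and 63.4% to 82.1%. Inward rectifiers took 7.79% to 19.0% in controls and at least 2.71% in knockouts, where the highest library, at 5.002%, was below the lowest control. Kcnj13 alone took 3.74% to 12.9% in controls and at most 0.0551% in knockouts. The summed level of all members was 49.8 to 70.9 CPM per kilobase in controls and 34.1 to 51.7 in knockouts, which overlapped. As a share of raw counts, without TMM or length, members took 0.0170% to 0.0294% in controls and 0.00855% to 0.0159% in knockouts. Those shares did not overlap.

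**Figure D3:**
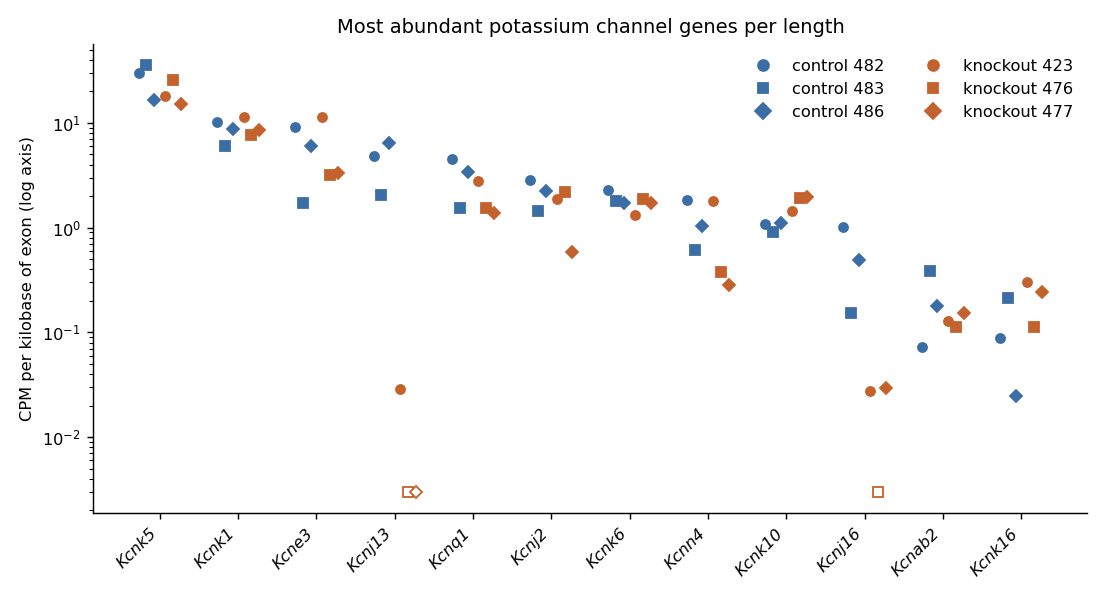
Level per exon length in each library, on a log axis, for the 12 potassium channel genes among the 10 highest in either genotype; open symbols at the bottom are libraries with no count. The ranges overlap for Kcnk5, Kcnk1, Kcne3, Kcnq1, Kcnj2, Kcnk6 and Kcnn4, while Kcnj13 and Kcnj16 drop in the knockouts and Kcnk10 sits above its controls.

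The 22 members that failed the low-count filter held 10 to 67 counts over the 6 libraries and never exceeded 0.780 CPM. In 12 of them every knockout was below every control, in none above, and 10 overlapped. Among all genes tested, 26.4% had every knockout below every control and 23.9% every knockout above, though the untested members were not part of that background. A fit without the filter called 2 of the 22, both lower, and both are named after their values were seen. In that fit 14.4% of all genes were called lower and 12.6% higher. Kcnj11 encodes Kir6.2, the pore of the ATP-sensitive channel that works with the sulfonylurea receptor SUR1 (Abcc8). Kcnj11 had 48 counts in the controls and 1 in the knockouts, a 28.1-fold ratio with a 95% counting interval of 4.81 to 1133 (adjusted p = 0.0101 in that fit). Kcnmb4 encodes a beta subunit of the large-conductance calcium-activated channel and had 29 and 1 counts, a 17.0-fold ratio with an interval of 2.82 to 694 (adjusted p = 0.0240). On the log2 scale Abcc8 changed by -0.81 (SE 0.52, adjusted p = 0.24). Means were higher in knockouts in 3 of the 22, namely Kcnip3, Kcnj8 and Kcnv2, with 15, 19 and 15 counts over the knockouts. Knockout 423 held 14 of those of Kcnip3 and knockout 477 held 13 of those of Kcnj8, and without that library each knockout mean lay below the control mean. At the edge of the rule, Kcnk2 was inside with 10 counts and Kcnab1 was outside with 8. Of the 48 symbols outside, 22 had no count at all.

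**Figure D4:**
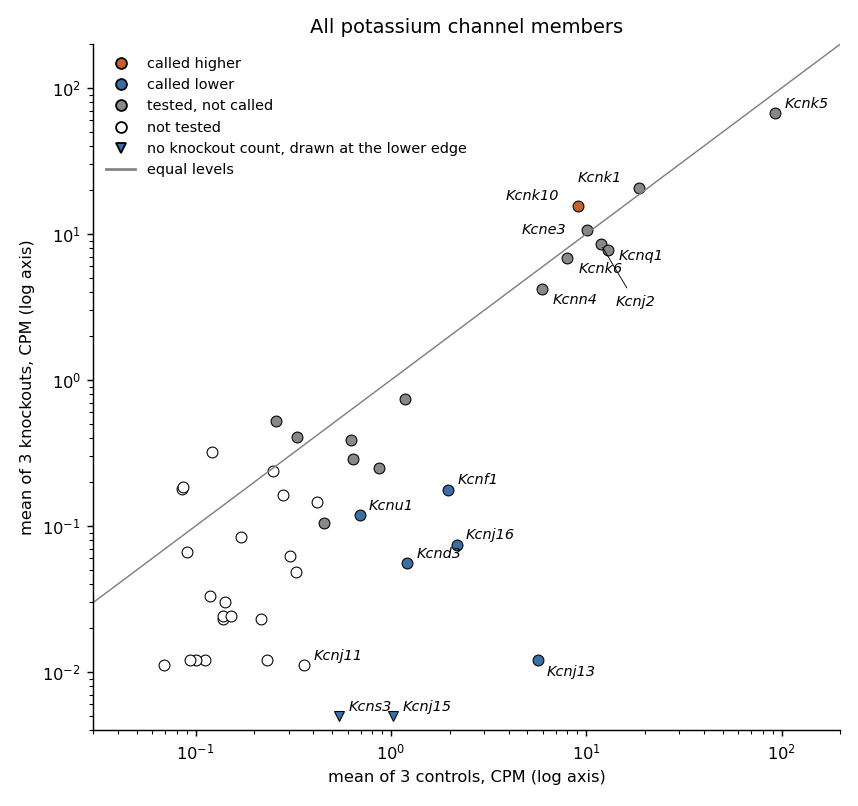
Mean CPM of the 3 controls against the mean of the 3 knockouts for all 44 members, on log axes, coloured by call; triangles at the lower edge have no knockout count. The 8 genes above 4 CPM in both genotypes lie near the line of equal levels, and Kcnj13 (5.64 CPM in controls) is the most abundant gene far below it.

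Genes that work with potassium channels were read from lists chosen for their roles. Values in parentheses here are log2 fold changes. For comparison with the called counts, 18.3% of all genes tested fell and 17.3% rose (median log2 fold change -0.06). Of 10 tested accessory and related genes outside the naming rule, 5 fell and none rose (median log2 fold change -0.99). Among those that fell were Lrrc26, a gamma subunit of the large-conductance channel (-1.05), Amigo1, an auxiliary subunit of Kv2 channels (-1.49), the pacemaker channel gene Hcn2 (-2.18) and the volume-regulated anion channel gene Lrrc8a (-1.03). Of 11 tested potassium pump and cotransporter genes, 4 fell and 1 rose. The sodium pump beta subunit gene Atp1b1 (-1.42) and the potassium-chloride cotransporter gene Slc12a7 (-1.20) were among those that fell, and Slc12a3 rose (2.65) at levels under 1 CPM. Slc12a2, the cotransporter that loads chloride and potassium for secretion, read 26.2, 7.56 and 13.4 CPM in the controls against 21.4, 7.84 and 5.46 CPM in the knockouts. Its libraries fell in the same order as those of Kcne3 in the controls.

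Of 16 tested partners of chloride secretion, 8 fell and 1 rose (median log2 fold change -1.26). Of all genes tested, 18.3% fell and 17.3% rose. The apical chloride channel gene Cftr fell by 2.40 on the log2 scale (SE 0.24) and the muscarinic receptor gene Chrm3 fell by 3.15 (SE 0.54), whereas the sodium-proton exchanger gene Slc9a3 rose by 2.43 (SE 0.28). Of 17 tested kinases, ligases and regulatory proteins that act on channels, 2 rose and 4 fell, with Sgk2 at 1.43 and Sgk3 at -1.01. Sgk1 gave -0.79 (SE 0.56, adjusted p = 0.29).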

How the data were processed

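PolyA RNA-seq of scraped small intestinal epithelium was read from 6 libraries, 3 control and 3 knockout, grouped by the sample titles. Animal numbers are not shared between groups, so nothing was paired. The deposited count table holds whole-number counts per gene. Alignment by STAR 2.7.9a to mm10 and counting by featureCounts (Subread 1.6.2) are named per the submitters' processing notes, beside fastp 0.21.0 and DESeq2 1.23.10. Annotation, strand setting and filters: not given in the sources used here. The authors' second table holds variance-stabilised log2 values and served 1 alternative.

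Symbols, coordinates and exon lengths came from GENCODE M21. Of 55450 identifiers 55190 matched, and the rest took at most 0.00294% of a library. The members and gene lists were chosen with earlier results of these data known. In edgeR 4.0.16 (R 4.3.3), filterByExpr kept 15028 genes, libraries were scaled by TMM (factors 0.741 to 1.28) and the robust quasi-likelihood test was used. An SE is the log2 fold change over the square root of F. Levels per length divide CPM by the exon bases of all isoforms. Bounds use a floor of 3 counts over the group. The chi-square between any pair of libraries in a group was at least 68.1 times its degrees of freedom, so none was a duplicate. Named genes were the called members, the 10 highest per length in either group, their subunit partners and the edge of the rule. The promoters were searched for 11 motifs, and the 2 reported were chosen after the matches had been seen. The test was tested on simulated data. The 13 alternatives were 2 scalings, no filter, DESeq2 1.42.0, limma-voom and limma-trend (limma 3.58.1), removal of length and GC trends (mgcv 1.9.3), and each library left out. The second targeted corepressor gene and some listed genes are not reported by name here.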

Additional observations from a re-analysis of the deposited data

How the results depend on the processing

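The number of members that fell was 7 and lay between 7 and 9 under the 7 alternatives that kept all libraries. It ranged from 6 to 11 with single libraries left out: 11 without knockout 423, when 27 members passed the filter, and 6 without control 482, when Kcnj15 failed the filter. Of all genes, 13.1% to 30.3% fell under the alternatives that kept all libraries and 11% to 19.5% with single libraries left out. The 7 genes that fell kept their call and direction under every alternative in which they were tested. Over the genes tested, log2 fold change fell with exon length (Spearman rho -0.375, a description across genes), and with length and GC trends removed the 7 stood between -8.71 and -2.45. The number that rose was 1, with a range of 0 to 1 with single libraries left out, and 0 with library-size scaling alone (edgeR; 0 members higher at an unadjusted p under 0.05, and 1 by DESeq2 and by limma-voom with TMM or median-of-ratios scaling). Of all genes, 9.91% to 19.3% rose with single libraries left out and 7.54% with library-size scaling alone. Where a left-out library gave 0 higher, 1 member was higher at an unadjusted p under 0.05, and 2 were without control 483. Of the 14 members that were not called, 6 changed sign in some alternative, without passing the threshold in it. The log2 fold change with library-size scaling alone was -0.32 for Kcne3, -0.29 for Kcnk1 and -0.083 for Kcnma1. With length and GC trends removed it was -0.22 for Kcne3, 0.0097 for Kcnh3 and 0.0027 for Kcnk6. With single libraries left out it ranged from -0.75 (without knockout 423) to 0.61 for Kcne3, from -0.041 (without control 483) to 0.31 for Kcnk1, from -0.14 (without control 486) to 0.86 for Kcnma1, from -1.56 to 0.40 (without control 482) for Kcnh3 and from -1.08 to 0.063 (without control 483) for Kcnab2. Fitted values of genes with no or 1 knockout count depend on the method: Kcnj15 went from -8.09 to -4.81 with limma-voom and -2.46 on the variance-stabilised values. Of the 44 members, 22 failed the low-count filter, and fitted without it 2 of these were called, both lower. In that fit 14.4% of all genes were called lower and 12.6% higher. No paired analysis was possible because the groups share no animal number.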
